A study of Mus musculus with 30 samples.

Results

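The transporters and uptake receptors of the kidney proximal tubule were described as a set of 10 genes: Slc34a1, Slc5a2, Slc5a12, Slc22a6, Slc22a8, Slc7a7, Slc13a3, Slc4a4, Lrp2 and Cubn. They were taken by symbol from the count tables, which held 48709 genes, and all 10 were found. The proximal tubule is the first part of the nephron after the glomerulus. It recovers most of the filtered sodium, phosphate, glucose, amino acids and bicarbonate and secretes organic anions. Its cells are polarised: transporters on the apical brush border take solutes out of the filtrate, and transporters on the basolateral side exchange them with the blood. Filtered proteins are taken up apically by a pair of very large endocytic receptors, megalin and cubilin.

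RNA-seq counts covered 5 tissues of adult C57BL/6 mice: brain, kidney, liver, quadriceps muscle and spleen. Each tissue had 3 libraries of wild type (WT) and 3 of Ctcf haploinsufficient mice (Ctcf+/-), which makes 30 libraries. The design text takes the tissues from 3 mice of each genotype. CTCF, a DNA-binding protein with zinc fingers, shapes chromatin loops, and the Ctcf+/- mice keep 1 working copy of its gene. The labels name no other allele and no treatment in either genotype, and do not state sex, exact age, litter or the origin of the Ctcf allele. Whole tissue pieces were extracted, so each kidney value averages over all segments of the nephron, the vessels and the stroma. Ctcf was lower in all 3 Ctcf+/- libraries than in any WT library in each of the 5 tissues, and in kidney it stood at 47.1 ± 2.76 CPM (counts scaled to library size, SD, n = 3) in WT and 29.0 ± 2.53 CPM in Ctcf+/-. Xist was present in every library and the 4 Y-linked genes examined had no counts in any kidney, brain or muscle library. In liver Eif2s3y alone of the 4 had counts in at least 1 library. In spleen each of the 4 had counts in at least 1 library.

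The regulation of these genes is usually discussed through a few nuclear factors of the proximal tubule cell, among them the HNF1 proteins, which bind a motif with the core GTTAAT. RefSeq promoters (GRCm38.p6, 250 bases before to 50 bases after an annotated start) were listed for 8 of the 10 genes, in 13 windows, with no entry for Slc5a2 and Slc5a12. The letters GTTAAT, read on both strands (ATTAAC on the other), occurred in 4 of these 13 windows and in 7.10% of all 32851 promoters. The 4 genes were Slc34a1, Slc22a6, Slc22a8 and Slc7a7. They are shown because they are the promoters of the set that share a motif, each as the 150 bases before the start, 5′ to 3′ on the gene's strand, with the core in capitals.

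Slc34a1 (chr13:55399498-55399647, plus strand): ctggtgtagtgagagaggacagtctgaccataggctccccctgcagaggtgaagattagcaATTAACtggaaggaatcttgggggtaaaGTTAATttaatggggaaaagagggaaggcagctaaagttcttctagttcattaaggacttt
Slc22a6 (chr19:8617846-8617995, plus strand): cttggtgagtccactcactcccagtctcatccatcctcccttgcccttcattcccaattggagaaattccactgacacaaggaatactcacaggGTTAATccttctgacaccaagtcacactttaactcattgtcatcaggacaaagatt
Slc22a8 (chr19:8593032-8593181, plus strand): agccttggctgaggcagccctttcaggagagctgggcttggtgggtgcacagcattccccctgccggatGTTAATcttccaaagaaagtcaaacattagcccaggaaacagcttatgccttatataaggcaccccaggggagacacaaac
Slc7a7 (chr14:54409473-54409622, minus strand): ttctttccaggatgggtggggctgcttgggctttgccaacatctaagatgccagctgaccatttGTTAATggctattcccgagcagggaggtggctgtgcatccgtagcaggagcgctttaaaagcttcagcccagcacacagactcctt

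The core began 56 bases before the start in Slc22a6, 81 in Slc22a8 and 86 in Slc7a7, in the last case in 1 of 5 listed promoters. Slc34a1 held it at 61 bases before the start and again, on the opposite strand, at 89 bases. The core of the CTCF motif, read on both strands, was found at 1 place, which lies in 2 overlapping Slc7a7 windows, and in no window of the other 7 genes, while 2.44% of all promoters held it. Such matches describe the letters of these windows and no binding was measured.

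Kidney libraries held 82.5 M to 100.2 M counts (M for mega), and all 30 libraries held 49.8 M to 131.6 M. The 10 genes took 0.827% to 1.04% of the counts of a kidney library. They took 0.0218% to 0.0293% in brain, 0.00981% to 0.0145% in liver, 0.00163% to 0.00267% in spleen and 0.00104% to 0.00323% in muscle.

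Marker genes of other tissues stood higher in some kidney libraries than in others. The summed level of 5 adrenal genes was 3.63 to 3.81 CPM in WT and 3.77, 37.1 and 67.3 CPM in Ctcf+/-, and none of the 5 was at 0. The summed level of 5 skeletal muscle genes was 116 CPM in WT replicate 3 and 148 CPM in Ctcf+/- replicate 3 and 0.0835 to 0.238 CPM in the other 4 libraries. Of the 5 hepatocyte genes, all were highest in Ctcf+/- replicate 3, where they summed to 321 CPM, against 54.2 to 69.4 CPM in WT. In the other 2 Ctcf+/- kidneys Ttr alone was above WT (105 and 83.1 CPM, against 28.1 to 49.7 CPM), and Alb stood at 6.99 and 9.21 CPM, against 8.003 to 32.5 CPM in WT. Whether RNA of other tissues bears on the values of the 10 genes was not tested.

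The highest level in the set belonged to the phosphate carrier. Slc34a1 (ENSMUSG00000021490, chr13:55399648-55414695) encodes the main sodium-phosphate cotransporter of the brush border. In kidney it stood at 1952, 2613 and 2684 CPM in WT and at 2964, 2707 and 2553 CPM in Ctcf+/- (CPM after TMM scaling over the 30 libraries). The WT library of replicate 1 was the lowest and the genotypes overlapped. Scaled by exon length, as TPM, which corrects for both length and library size, it averaged 2459 TPM over the 6 kidney libraries and ranked 33 of 48709 genes.

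Among the apical sugar and acid carriers, Slc5a2 (ENSMUSG00000030781, chr7:128265657-128272430) encodes SGLT2, the glucose transporter of the early proximal tubule. It stood at 152, 241 and 238 CPM in WT kidney and at 302, 209 and 242 CPM in Ctcf+/- kidney. This was the widest spread of the 10 genes, with the highest library, Ctcf+/- replicate 1, at 1.98 times the lowest, WT replicate 1. Exons of BC017158 cover 20.6% of its 2897 exon bases, and fragments there were assigned to neither gene. Slc5a12 (ENSMUSG00000041644, chr2:110597298-110647779) encodes an apical sodium-coupled lactate carrier. Its values were 126, 120 and 113 CPM in WT kidney and 153, 118 and 107 CPM in Ctcf+/- kidney, so the Ctcf+/- libraries enclosed all WT libraries.

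The basolateral organic anion exchangers lie side by side on chromosome 19, 6161 bases apart. Slc22a6 (ENSMUSG00000024650, chr19:8617996-8628299) encodes OAT1, which takes up drugs and waste anions from the blood in exchange for dicarboxylates. It was the steadiest gene of the set in kidney, at 365, 375 and 379 CPM in WT and 380, 373 and 322 CPM in Ctcf+/-. Slc22a8 (ENSMUSG00000063796, chr19:8591254-8611834) encodes the related exchanger OAT3. Its kidney values were 420, 548 and 546 CPM in WT and 495, 514 and 372 CPM in Ctcf+/-, overlapping between genotypes. The ratio of Slc22a8 to Slc22a6 TPM lay between 1.33 and 1.69 in the 6 libraries. Slc13a3 (ENSMUSG00000018459, chr2:165405028-165473230) encodes the basolateral sodium-dicarboxylate cotransporter NaDC3, which supplies the dicarboxylates that OAT1 and OAT3 exchange. It stood at 465, 695 and 724 CPM in WT kidney and at 640, 735 and 529 CPM in Ctcf+/- kidney, with WT replicate 1 lowest.

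The other basolateral carriers serve amino acids and bicarbonate. Slc7a7 (ENSMUSG00000000958, chr14:54369442-54417780) encodes the light chain of the exporter of cationic amino acids. Its kidney values were 108, 104 and 116 CPM in WT and 125, 95.2 and 128 CPM in Ctcf+/-, and exons of Oxa1l cover 7.05% of its exon bases. Slc4a4 (ENSMUSG00000060961, chr5:88886818-89239653) encodes the electrogenic sodium-bicarbonate cotransporter NBCe1, through which reclaimed bicarbonate leaves the cell. It stood at 577, 527 and 544 CPM in WT kidney and at 647, 525 and 466 CPM in Ctcf+/- kidney. In both genes the Ctcf+/- libraries spread more widely than the WT libraries and enclosed them.

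The endocytic receptors are the longest genes of the set. Lrp2 (ENSMUSG00000027070, chr2:69424340-69586065, 16701 exon bases) encodes megalin, and Cubn (ENSMUSG00000026726, chr2:13276338-13491813, 14935 exon bases) encodes cubilin, which has no membrane span of its own and is internalised with megalin and amnionless. Lrp2 stood at 2229, 1835 and 1735 CPM in WT kidney and at 2117, 1924 and 1604 CPM in Ctcf+/- kidney. Cubn stood at 411, 344 and 353 CPM in WT kidney and at 407, 395 and 323 CPM in Ctcf+/- kidney. In both, WT replicate 1 was highest and Ctcf+/- replicate 3 lowest, and the ratio of Lrp2 to Cubn TPM kept between 4.35 and 4.85.

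**Figure D1:**
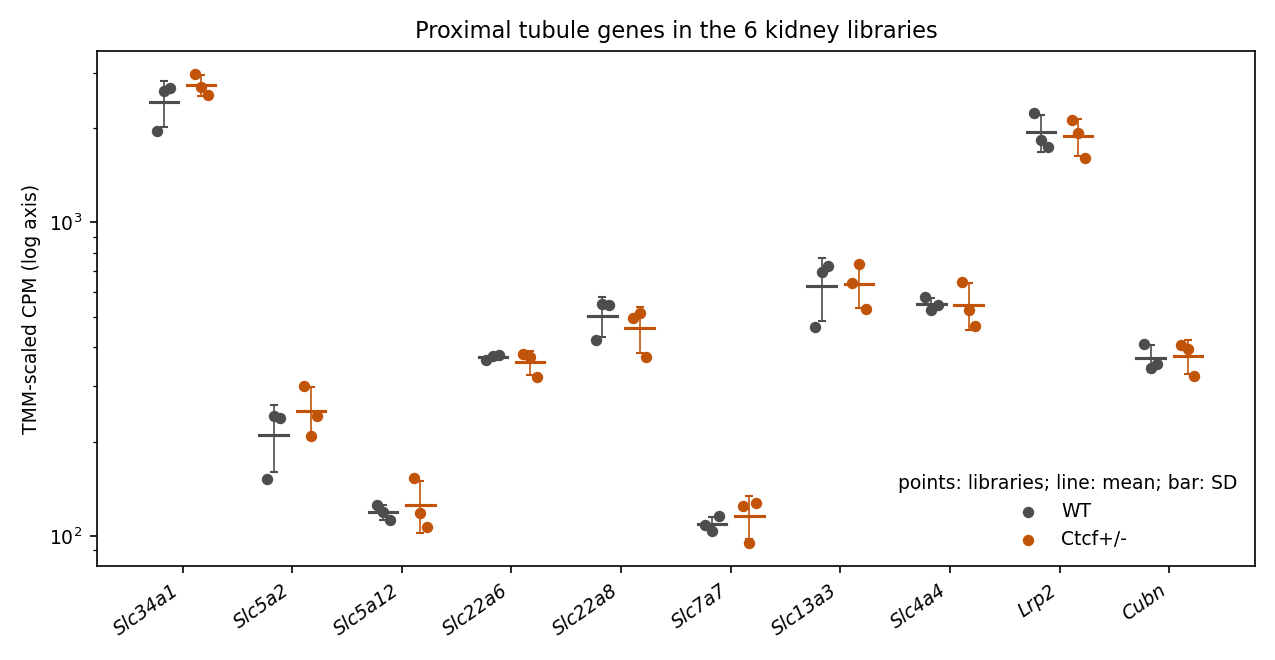
Level of each gene in the 6 kidney libraries, in TMM-scaled CPM on a log axis. Points are libraries, lines are group means and bars are SD (n = 3). WT and Ctcf+/- points overlap for all 10 genes, and Slc34a1 and Lrp2 lie highest before any correction for gene length.

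Per length, the order of the kidney means was Slc34a1 (2459 TPM), Slc22a8 (408 TPM), Slc13a3 (356 TPM), Lrp2 (337 TPM), Slc22a6 (267 TPM), Slc5a2 (234 TPM), Slc4a4 (149 TPM), Slc7a7 (100.4 TPM), Slc5a12 (89.0 TPM) and Cubn (73.5 TPM). Of the 9 neighbouring pairs in this order, the ranges over the 6 libraries did not overlap for Slc34a1 against Slc22a8 and for Slc4a4 against Slc7a7, and the other 7 pairs overlapped. Lrp2, second by fragments, was the fourth once its length was taken into account.

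The comparison the design implies is Ctcf+/- against WT in kidney. None of the 10 genes passed the test in either direction. A gene was called at an adjusted p under 0.05 in edgeR's quasi-likelihood test (Benjamini-Hochberg, 18937 kidney genes). That rule called 4 genes in all (0.0211%), or 21 with the replicate number as a block, and Ctcf itself fell short of it in kidney (log2 difference -0.70, SE 0.10, adjusted p = 0.107). No member had an unadjusted p under 0.05, against 6.44% of the genes tested, and no member had groups that did not overlap, against 11.4%. DESeq2 also called 0 of the 10. All 10 members passed the filter on low counts in kidney.

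The log2 differences of the members ran from -0.14 to 0.25 with a median of 0.02, beside a median of 0.00 for all genes tested. Slc5a2 had the largest, 0.25 (SE 0.19, 95% interval -0.20 to 0.69), followed by Slc34a1 at 0.18 (SE 0.14, interval -0.14 to 0.50). Both lean on WT replicate 1, which was the lowest kidney library for each. Without it they were 0.06 for Slc5a2 and 0.04 for Slc34a1.

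For the basolateral carriers the estimates were -0.14 for Slc22a8 (interval -0.50 to 0.23), -0.06 for Slc22a6 (-0.28 to 0.16), 0.01 for Slc13a3 (-0.42 to 0.45), 0.08 for Slc7a7 (-0.19 to 0.34) and -0.01 for Slc4a4 (-0.30 to 0.28). Slc5a12 stood at 0.07 (-0.23 to 0.38), Lrp2 at -0.04 (-0.36 to 0.28) and Cubn at 0.02 (-0.26 to 0.30). The adjusted p of the 10 genes lay between 0.979 and 0.999. With 3 libraries a side the intervals leave room for differences up to the bounds given. In whole kidney, fewer proximal tubule cells and less RNA per cell cannot be told apart.

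**Figure D2:**
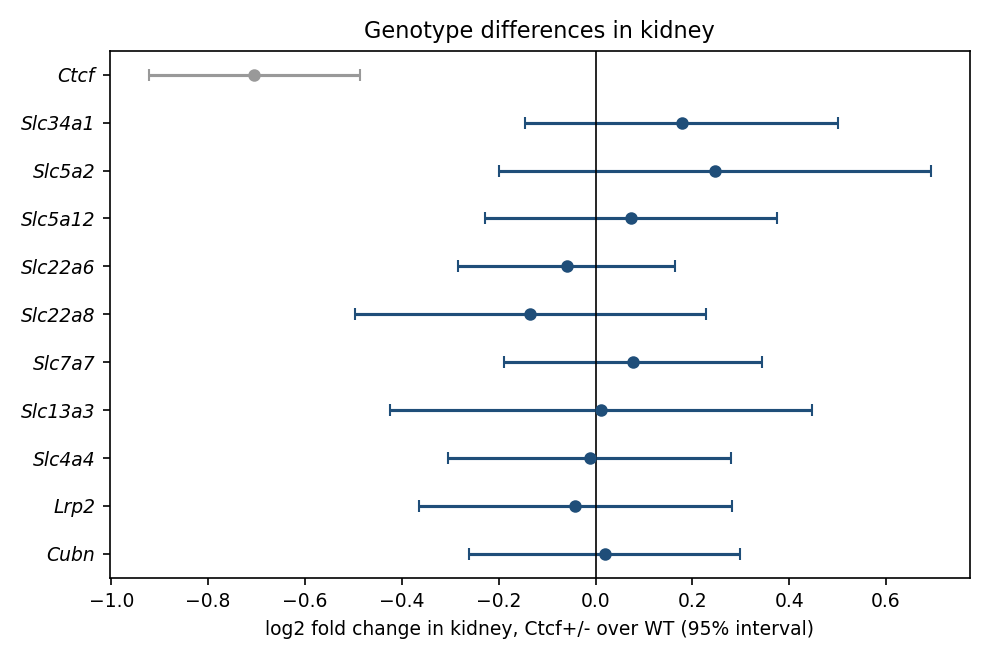
Log2 difference between Ctcf+/- and WT kidney for each gene, with 95% intervals from edgeR (3 libraries per genotype). Each interval of the 10 genes crosses 0, while that of Ctcf, shown in grey as the check of the genotype labels, lies below it.

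The differences between single libraries were as large as any between the genotypes. WT replicate 1 was the lowest kidney library for 3 genes, Slc34a1 (-0.39 from the mean of the 6 libraries on the log2 scale), Slc5a2 (-0.57) and Slc13a3 (-0.42), and the highest for Lrp2 (0.23) and Cubn (0.15). Ctcf+/- replicate 1 was above the mean for 10 of 10 genes and highest for 5. Ctcf+/- replicate 3 was lowest for 6 genes, with Slc22a8 the farthest at -0.36.

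**Figure D3:**
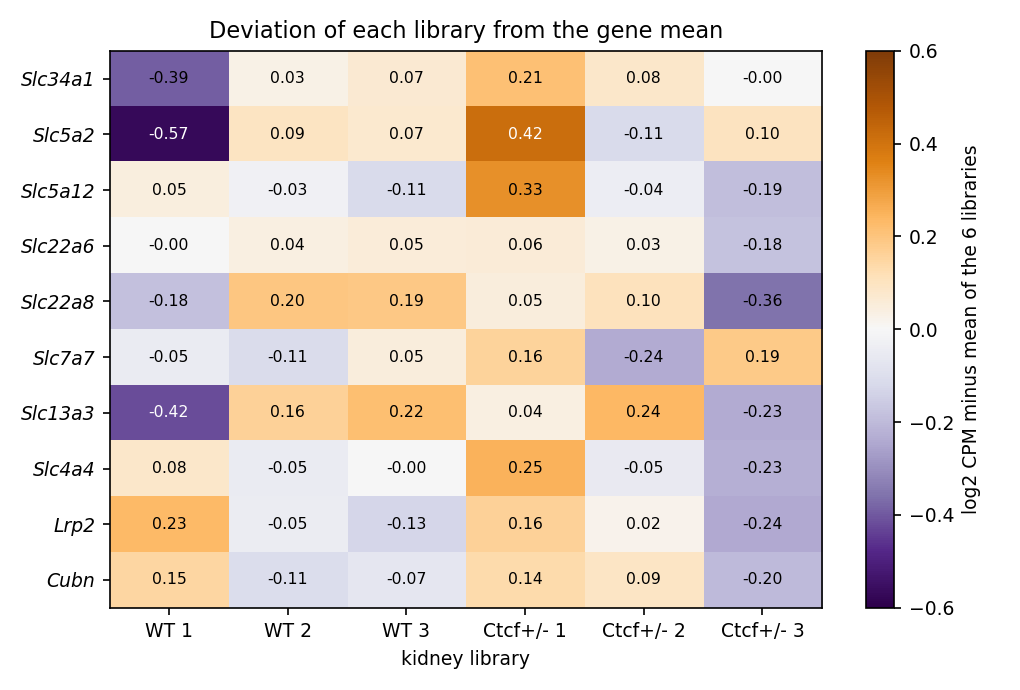
Log2 CPM of each gene in each kidney library minus the mean of the 6 libraries. The column of WT replicate 1 holds low values for Slc34a1, Slc5a2 and Slc13a3 and high values for Lrp2 and Cubn, and the column of Ctcf+/- replicate 3 is negative or close to 0 except for Slc5a2 and Slc7a7.

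Long and short genes also deviated differently across the transcriptome. Over the 1044 kidney genes with 10000 or more exon bases the median log2 deviation was 0.10, -0.04 and -0.03 in the WT libraries and 0.07, 0.07 and -0.16 in the Ctcf+/- libraries. Over the 5968 genes with fewer than 3500 exon bases it was -0.04, 0.02 and 0.02 in WT and -0.03, -0.07 and 0.11 in Ctcf+/-. Lrp2, Cubn and Slc4a4 are in the long class and Slc34a1, Slc5a2, Slc22a8 and Slc7a7 in the short class. The members did not all follow their class: the short genes Slc34a1 and Slc5a2 were highest in Ctcf+/- replicate 1, and the short gene Slc22a8 was lowest in Ctcf+/- replicate 3. The ratio of Slc34a1 to Lrp2 TPM was 4.75 in WT replicate 1 and 7.59 to 8.63 in the other 5 libraries. The part of length or RNA quality in these deviations was not tested.

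Markers of other kidney cells were set beside the genotype comparison. The 5 podocyte genes were all higher in every Ctcf+/- kidney than in any WT kidney, as were 6.15% of the genes tested, with a summed level of 171 to 209 CPM in WT and 230 to 288 CPM in Ctcf+/-, and none of the 5 was called (lowest adjusted p = 0.531). The 5 stromal genes summed to 163 to 183 CPM in WT and 219 to 273 CPM in Ctcf+/-, and 3 of the 5 did not overlap. Genes of the injured proximal tubule, 7 in all, summed to 1469 to 1577 CPM in WT and 1912 to 2299 CPM in Ctcf+/-, of which most was Spp1 (log2 difference 0.49, SE 0.10, adjusted p = 0.242). Of these 7, 2 did not overlap, 1 was lower in Ctcf+/- (log2 difference -1.07) and 0 were called. The 6 immune genes summed to 284 to 352 CPM in WT and 365 to 430 CPM in Ctcf+/-, and 1 of the 6, Cd74, did not overlap. Havcr1, which is switched on in damaged proximal tubule cells, stood at 2.81, 0.952 and 1.67 CPM in WT and 10.1, 1.54 and 3.29 CPM in Ctcf+/-, with overlap and the highest value in Ctcf+/- replicate 1. The 5 genes of the loop of Henle summed to 5699 to 6009 CPM in WT and 5225 to 5713 CPM in Ctcf+/-. Other sums overlapped between WT and Ctcf+/- kidney. They were 248 to 297 and 234 to 312 CPM for 5 endothelial genes, and 677 to 761 and 651 to 796 for 4 distal tubule genes. For 8 collecting duct genes they were 547 to 663 and 482 to 887 CPM. For 5 genes of the last proximal tubule segment they were 693 to 858 and 639 to 769 CPM. None of the marker genes was at 0 in all 6 kidney libraries, and their part in the values of the 10 genes was not tested.

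Of the other genes of the proximal tubule, 0 of the 76 tested genes of 6 lists were called in kidney. An unadjusted p under 0.05 was found for 11 of the 76 (14.5%), against 6.44% of all genes tested and 0 of the 10 members. Among 23 further apical transporters, 3 had an unadjusted p under 0.05 and the median log2 difference was 0.01. The farthest from 0 were Abcc4, an exporter of organic anions, at -0.55 (SE 0.20, adjusted p = 0.643) and Slc34a3, another renal phosphate cotransporter, at 0.41 (SE 0.14, adjusted p = 0.633). Abcc4 stood at 69.3, 74.9 and 103.8 CPM in WT and 58.7, 67.5 and 43.4 CPM in Ctcf+/-, and Slc34a3 at 32.5, 39.5 and 38.3 CPM in WT and 59.0, 39.5 and 48.5 CPM in Ctcf+/-. Neither pair of groups overlapped, although the gap for Slc34a3 was less than the rounding shown.

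Among 13 basolateral transporters, 2 had an unadjusted p under 0.05 and the median was 0.08. Both carry amino acids: Slc16a10 stood at 0.40 (SE 0.15) and Slc7a8 at 0.38 (SE 0.15), each with an adjusted p of 0.692. The 11 partners of the endocytic receptors had a median of 0.02 and none under 0.05. The largest among them were the lysosomal cystine exporter Ctns at 0.21 (SE 0.10) and Amn, which encodes the amnionless chain of the cubilin complex, at 0.16 (SE 0.15).

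Scaffolds and hormonal regulators, 14 genes, had a median of 0.10 and 4 genes under an unadjusted 0.05. Cyp24a1, the enzyme that breaks down active vitamin D, stood at 8.14, 27.7 and 13.96 CPM in WT and 27.2, 53.4 and 30.1 CPM in Ctcf+/-, a log2 difference of 1.15 (SE 0.43, adjusted p = 0.663), with overlapping groups. With the replicate number as a block it was called, at 1.25 (adjusted p = 0.0403). Cyp27b1, which makes active vitamin D, stood at -0.47 (SE 0.57) at a mean of 3.78 CPM in WT.

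Transcription factors, 9 genes, had a median of 0.02, with Maf at 0.28 (SE 0.10, adjusted p = 0.617) and the fatty acid sensor Ppara at -0.16 (SE 0.24). Of 7 proximal tubule genes known to differ between the sexes, 6 were tested, with a median of 0.24. Cyp2e1 stood at 67.0, 79.7 and 67.4 CPM in WT and 37.4, 27.2 and 66.1 CPM in Ctcf+/-, a log2 difference of -0.72 (SE 0.27, adjusted p = 0.682). Without Ctcf+/- replicate 3 it was called, at -1.14 (adjusted p = 0.0336). Slc7a13, a transporter of the last proximal tubule segment, stood at 0.61 (SE 0.46).

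Outside kidney the genes fell into those with a level of their own elsewhere and those found at a trace. Kidney was the highest WT tissue for all 10, without overlap with the next. The set was chosen for its level in kidney, so this order is a description.

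**Figure D4:**
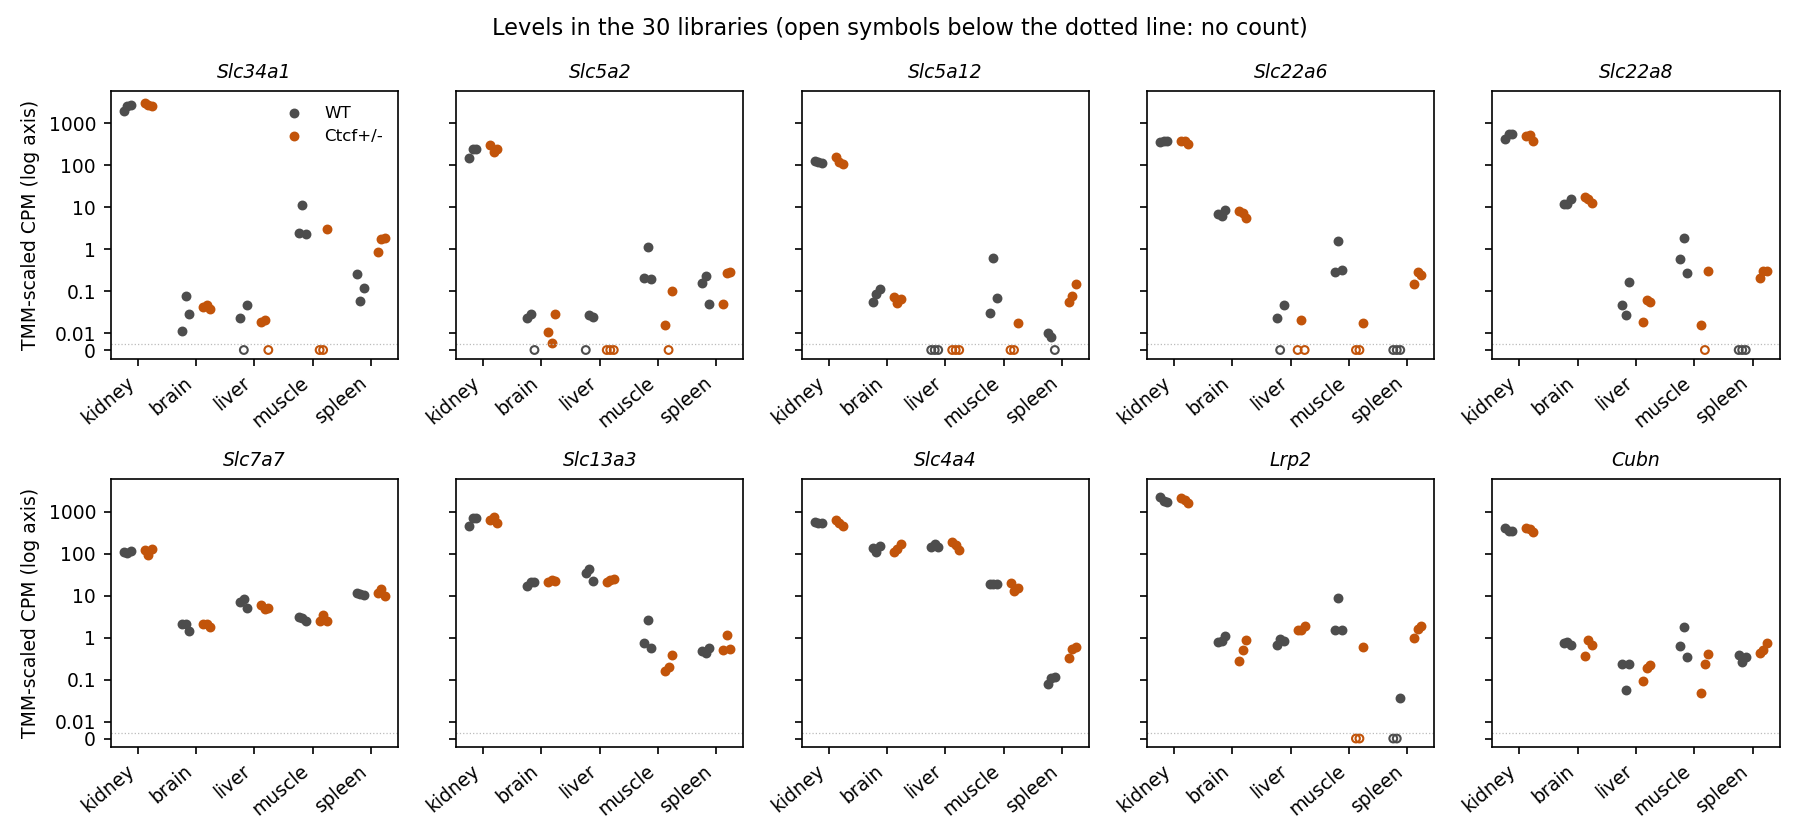
Level of each gene in all 30 libraries, in TMM-scaled CPM on a log axis, with WT in grey and Ctcf+/- in orange. Open symbols are libraries with no count. For Slc34a1, Slc5a2, Slc5a12, Lrp2 and Cubn the highest point outside kidney is the muscle library of WT replicate 2, at 11.4 CPM or less, while the other 5 genes have a separate level in brain, liver or spleen.

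Slc4a4 was the least restricted. In WT it averaged 549 ± 25.5 CPM in kidney, 153 ± 11.8 in liver, 133 ± 19.4 in brain, 19.0 ± 0.299 in muscle and 0.102 ± 0.0192 in spleen (SD, n = 3). Kidney exceeded liver 3.59-fold and brain 4.14-fold on this scale, and 7.25-fold and 3.72-fold when scaled by total counts. Liver and brain overlapped with TMM scaling, while brain exceeded liver without overlap with total counts (188 against 96.3 CPM).

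Slc13a3 averaged 628 ± 142 CPM in WT kidney, 33.0 ± 10.2 in liver and 19.96 ± 2.20 in brain, and the order of liver and brain also turned with total counts (20.3 against 28.3 CPM). The TMM factors that separate these scales were 0.56 to 0.73 in liver and 1.31 to 1.43 in brain. Slc7a7 had its second level in spleen, at 10.99 ± 0.408 CPM against 109 ± 6.05 in kidney, followed by liver at 6.82 ± 1.59. Muscle (2.91 CPM) stood above brain (1.91 CPM) for Slc7a7 and below it with total counts (1.81 and 2.70 CPM).

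The organ with a second level of both organic anion exchangers was brain. Slc22a6 stood there at 7.04, 6.22 and 8.54 CPM in WT and 8.03, 7.26 and 5.66 CPM in Ctcf+/-. Slc22a8 stood at 11.9, 11.9 and 15.3 CPM in WT and 17.2, 15.5 and 12.9 CPM in Ctcf+/-. WT kidney exceeded WT brain 51.3-fold for Slc22a6 and 38.7-fold for Slc22a8, and the genotypes overlapped for both. Choroid plexus genes, 5 in all with none at 0, summed to 756, 876 and 524 CPM in WT brain and 864, 785 and 702 CPM in Ctcf+/- brain. The lowest WT sum was in replicate 3, which had the highest Slc22a6 and Slc22a8. In Ctcf+/- brain the sum and both exchangers fell from replicate 1 to replicate 3. The list shares Ttr with the hepatocyte list, which summed to 715, 827 and 498 CPM in WT brain, so Ttr may carry most of both sums. The part of choroid plexus in these values was not tested.

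No member was called in brain (7 tested, adjusted p = 0.999988 for each, 0.0157% of genes called) or in liver (4 tested, 0.0193% called), in edgeR or DESeq2. None had an unadjusted p under 0.05 in brain, against 2.96% of genes, and 2 did in liver, against 4.56%. Lrp2 in liver had counts of 29, 33 and 36 in WT and 83, 74 and 68 in Ctcf+/-, or 0.685, 0.923 and 0.858 CPM against 1.53, 1.56 and 1.87 CPM. All Ctcf+/- livers were above all WT livers, as for 4.68% of the genes tested in liver, with a log2 difference of 0.99 (SE 0.28, adjusted p = 0.708). Slc34a1, more abundant than Lrp2 in kidney, had 0 to 2 counts in the liver libraries. The 5 adrenal genes summed to 4.15 to 5.55 CPM in WT liver and 16.0 to 20.8 CPM in Ctcf+/- liver. Whether RNA of other tissues bears on the liver values was not tested. The second member with an unadjusted p under 0.05 in liver was Slc13a3, at -0.49 (SE 0.20, adjusted p = 0.9999). In brain Lrp2 stood at 0.799, 0.825 and 1.10 CPM in WT and 0.276, 0.506 and 0.895 CPM in Ctcf+/-, a log2 difference of -0.76 (SE 0.37) with overlapping groups.

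At the trace level, spleen libraries split by genotype. In all 3 Ctcf+/- spleens 7 of the 10 genes were above all 3 WT spleens: Slc34a1, Slc5a12, Slc22a6, Slc22a8, Slc4a4, Lrp2 and Cubn. The same held for 4.35% of the genes tested in spleen, which do not include Slc5a12. The 7 are not read against this share. Slc34a1, Slc22a6, Slc22a8, Slc4a4 and Lrp2 passed the filter on low counts only through the Ctcf+/- libraries. Slc22a6 had 0 counts in each WT spleen and 21, 30 and 34 counts in the Ctcf+/- spleens, at least 8.83-fold higher against 3 counts per WT library. Slc22a8 had 0 counts in each WT spleen and 29, 32 and 42 counts in the Ctcf+/- spleens, at least 10.6-fold higher. These counts are small beside totals of 77.9 M to 91.4 M per spleen library.

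Lrp2 had 0, 0 and 5 counts in WT spleen and 144, 167 and 256 in Ctcf+/- spleen. Slc34a1 had 26, 7 and 16 counts in WT spleen and 120, 186 and 254 in Ctcf+/- spleen. Slc4a4 had 8, 13 and 16 counts in WT spleen and 46, 55 and 85 in Ctcf+/- spleen. Each of these genes was higher in every Ctcf+/- spleen, whereas Slc5a2 (7 to 27 counts in WT and 7 to 40 in Ctcf+/-) and Slc13a3 (48 to 79 and 73 to 124) overlapped. Slc5a12, at no more than 20 counts in any spleen, was below the filter on low counts. The edgeR test called 0 of the 10 in spleen, where it called 0.242% of genes. Lrp2 came closest (adjusted p = 0.0517), then Slc22a8 (0.0599) and Slc22a6 (0.0884), and 5 members had an unadjusted p under 0.05 (3.52% of genes). DESeq2 called 5. These counts are not read against all genes, since 5 of the 9 members tested passed the filter only through the Ctcf+/- libraries, where they are high. Slc7a7, which has a level of its own in spleen, stood at 10.99 ± 0.408 CPM in WT and 11.9 ± 2.34 CPM in Ctcf+/-, a log2 difference of 0.13 (SE 0.19).

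Genes of other nephron segments moved with these traces. Each level can be given in ppm of the kidney mean, where 10000 ppm are 1% of it. In the Ctcf+/- spleens Slc34a1, Slc22a6, Slc22a8 and Lrp2 stood at 325 to 528 ppm in replicate 1, 635 to 838 in replicate 2 and 631 to 974 in replicate 3. Umod and Slc12a1 of the loop of Henle, Aqp2 of the collecting duct and Kap, an abundant proximal tubule gene, stood at 375 to 427, 755 to 893 and 504 to 948 ppm in the same libraries. In the WT spleens these 4 genes were at 0 except for 2 counts of Slc12a1 in replicate 3. These 8 genes were chosen after their values were seen, and others lay outside their ranges. Slc4a4 stood at 587, 961 and 1126 ppm in the 3 Ctcf+/- spleens, Slc5a12 at 456, 624 and 1183, and Slc5a2 at 212, 1162 and 1258. Scnn1b of the collecting duct stood at 1406, 1927 and 1460 ppm and Cldn16 of the loop at 537, 0 and 2231 ppm.

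Over the whole marker lists, 3 of 5 loop genes, 3 of 8 collecting duct genes, 1 of 5 podocyte genes and 0 of 4 distal tubule genes were higher in all Ctcf+/- spleens than in all WT spleens. So were 4.35% of the genes tested in spleen. Some list genes had few counts, so the list numbers are not read against this share. The collecting duct gene Scnn1g went the other way, with 6, 5 and 7 counts in WT and 3, 4 and 3 in Ctcf+/-. Some of the remaining genes had a level of their own in spleen, such as Slc4a1, which red cell precursors also make. The loop genes summed to 1.45 to 1.88 CPM in WT spleen and 3.91 to 6.45 CPM in Ctcf+/- spleen. The 5 hepatocyte genes went the other way, at 21.6 to 27.4 CPM in WT spleen and 0.0279 to 0.115 CPM in Ctcf+/- spleen. The part of RNA from other organs in the spleen values was not tested.

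In muscle the traces split the other way. Here 5 genes were lower in all 3 Ctcf+/- libraries than in all WT libraries: Slc5a2, Slc5a12, Slc22a6, Slc13a3 and Lrp2, as for 6.28% of the genes tested in muscle. The 5 are not read against this share. Slc5a2, Slc22a6 and Lrp2 passed the filter only through the WT libraries, and Slc5a12 was not tested. Slc22a6 had 19, 101 and 18 counts in WT muscle and 0, 0 and 1 in Ctcf+/- muscle, a ratio of 129 after scaling (95% exact interval 22.7 to 5114, for counting error only). Without WT replicate 2, which holds 101 of the 138 WT counts, the ratio was 52.8 (8.91 to 2141). Lrp2 had 96, 563 and 87 counts in WT and 0, 0 and 35 in Ctcf+/-. Slc34a1 had 154, 739 and 136 in WT and 0, 0 and 176 in Ctcf+/-, so that 1 Ctcf+/- library lay within the WT range. Slc22a8 and Cubn overlapped in the same way, and Slc5a12 was below the filter on low counts in muscle.

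The WT library of replicate 2 was the highest for Slc22a6, Lrp2 and Slc34a1. Without Ctcf+/- replicate 3, 8 members were lower in all Ctcf+/- libraries. Groups with a library left out separate more easily, and the share over all genes was not computed for this setting. The edgeR test called 0 of the 10 in muscle (0.0249% of genes called), with 6 under an unadjusted p of 0.05 (6.45% of genes), and DESeq2 called 3. These counts are likewise not read against all genes, since 6 of the 9 members tested passed the filter only through the WT libraries. As a fraction of kidney, Slc34a1, Slc22a6, Slc22a8 and Lrp2 stood at 3900 to 4553 ppm in WT replicate 2, at 782 to 1192 in replicate 1 and at 576 to 916 in replicate 3. Kap, Umod, Slc12a1 and Aqp2 stood at 4813 to 7283, 655 to 1036 and 722 to 965 ppm in the same libraries. With total counts the median of the first 4 genes in WT replicate 2 was 2138 ppm, against 4340 ppm with TMM. In Ctcf+/- replicate 3 the members did not keep a common fraction, from 47.1 ppm for Slc22a6 to 1175 ppm for Slc34a1.

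Muscle has a level of its own for Slc4a4 and Slc7a7. Slc4a4 stood at 18.8, 18.9 and 19.3 CPM in WT and 19.6, 12.9 and 15.4 CPM in Ctcf+/- muscle, with no step between WT replicate 2 and the others. Slc7a7 stood at 3.20, 2.99 and 2.54 CPM in WT and 2.55, 3.40 and 2.50 CPM in Ctcf+/-. Of the whole lists, 2 of 5 loop genes, 4 of 8 collecting duct genes, 1 of 4 distal tubule genes and 0 of 5 podocyte genes were lower in all Ctcf+/- muscles. So were 6.28% of the genes tested in muscle. Some list genes had few counts, so the list numbers are not read against this share. The collecting duct genes summed to 0.920 to 4.46 CPM in WT and 0.524 to 0.964 CPM in Ctcf+/-, and the loop genes, of which Egf has a level of its own in muscle, to 57.5 to 80.4 CPM and 49.8 to 70.2 CPM. The part of RNA from kidney in the muscle values was not tested.

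**Figure D5:**
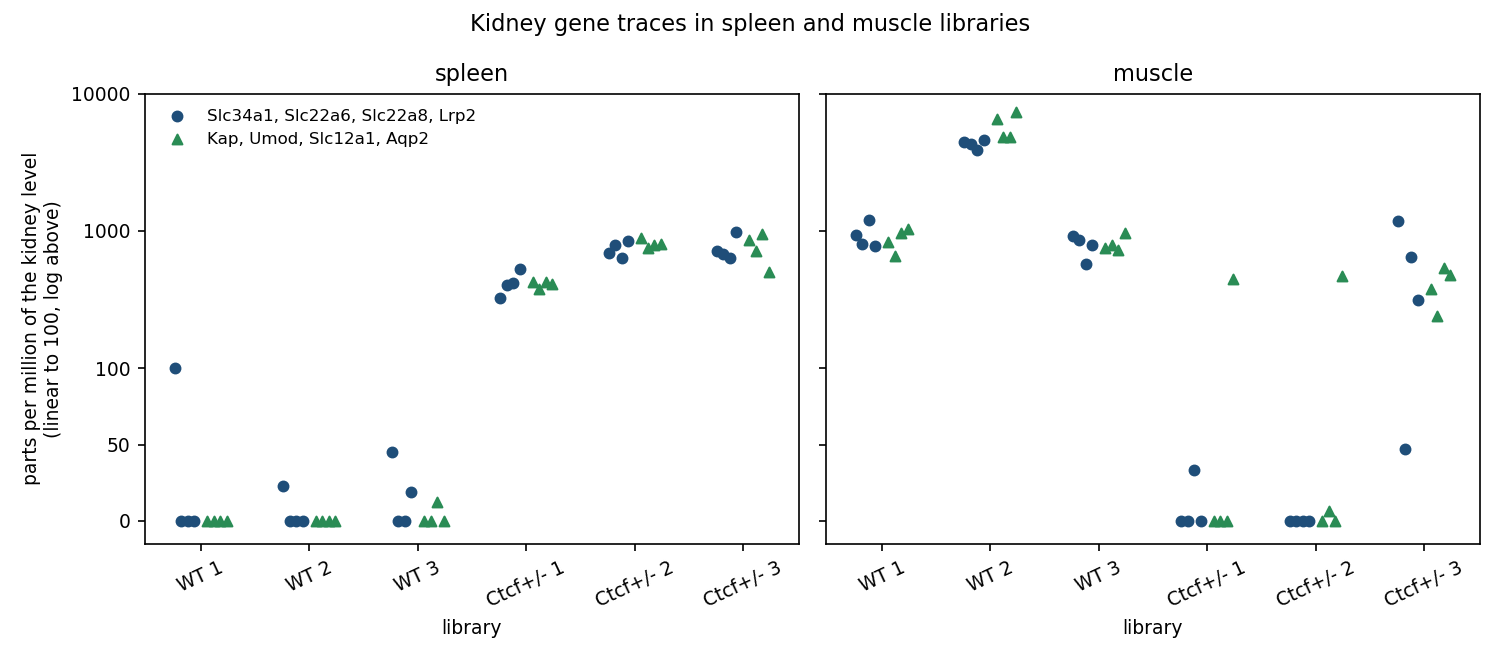
Level of 4 members (circles) and of 4 genes of other kidney segments or of the whole proximal tubule (triangles) in each spleen and muscle library, in ppm of the kidney mean; the axis is linear to 100 and log above. In Ctcf+/- spleens both sets lie between 325 and 974, and in muscle WT replicate 2 stands above all other libraries at 3900 to 7283.

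Whether the genotype difference itself varied between tissues was tested with the tissue-by-genotype interaction over the 30 libraries. Of the 10 genes 4 passed, against 0.758% of the 24262 genes tested: Slc22a6 (adjusted p = 0.000444), Lrp2 (0.000856), Slc4a4 (0.00302) and Slc22a8 (0.00808). All 10 pass the filter on low counts through kidney, whatever their level elsewhere. Their number is therefore not read against all genes. With the replicate number as a block Slc22a8 did not pass (0.122) and Slc5a12 did (0.0227). Without the kidney libraries the same 4 passed, and without the muscle libraries 6 did, with Slc5a12 and Slc34a1 added. Without the spleen libraries 1 passed, Slc22a6 (adjusted p = 0.0417), and without muscle and spleen none did, with adjusted p of 0.471 for Lrp2 and 1 for Slc22a6, Slc4a4 and Slc22a8. The libraries were treated as independent, although the design text takes the tissues from the same 3 mice per genotype.

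The genes most like the set were found by correlating log2 CPM (prior count 2) with the mean of the 10 genes over the 30 libraries, among 8943 other named genes with at least 10 CPM in kidney. They were Slc5a8 (r = 0.987), Slc34a3 (0.982), Pfn3 (0.982), Slc13a1 (0.981) and Ren1 (0.979). The libraries fall into 5 tissues, so these values mainly restate which genes are high in kidney. Slc5a8, a second sodium-coupled monocarboxylate carrier, averaged 94.5 ± 3.14 CPM in WT kidney and 98.2 ± 10.9 CPM in Ctcf+/- kidney. Slc13a1, the sodium-sulfate cotransporter, averaged 214 ± 30.0 and 247 ± 71.3 CPM. Pfn3, separated from the end of Slc34a1 by a gap of 57 bases, averaged 29.8 ± 5.20 and 35.8 ± 2.62 CPM. Ren1, which encodes renin of the juxtaglomerular cells and not of the tubule, averaged 56.1 ± 11.2 and 89.3 ± 17.0 CPM, with ranges of 43.5 to 64.7 CPM in WT and 75.7 to 108 CPM in Ctcf+/-.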

How the data were processed

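The authors counted read pairs over exons with featureCounts 1.5.0-p3 and deposited the raw counts, a table for each tissue, per the file headers. Gene models came from Ensembl 86 (GRCm38), and strand was not used. Fragments that overlap several genes or align to several places are left out under that command. FastQC, STAR and DESeq2 are named in the submitters' processing notes, and read length and trimming are not given in the sources used here. Of 48709 genes, 48349 had a symbol matched by identifier.

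Counts were tested with edgeR 4.0.16 (R 4.3.3) in each tissue alone: filterByExpr, TMM, quasi-likelihood F-test, Benjamini-Hochberg over all genes tested. SE is the log2 difference divided by the root of F. The tissue-by-genotype interaction used all 30 libraries. Levels are TMM-scaled CPM over 30 libraries, and TPM used the deposited exon lengths. Figures were drawn with matplotlib 3.10.9. The scripts were tested on simulated data. Alternatives were DESeq2 1.42.0, limma-voom (limma 3.58.1), other scalings and filters, a fit of all 30 libraries, the replicate block and leaving out each library. Intron retention was not analysed here. A count of 0 allows up to 3 counts, and intervals and floors cover counting error only. Per the design text, the 3 libraries of a group come from separate mice.

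The members and lists were chosen with earlier results of these data known. All members and Ctcf are named. Of each list the called genes and the 2 with the largest absolute log2 difference at a mean of at least 1 CPM are named, and the 5 genes most like the set. BC017158, Oxa1l, Spp1, Havcr1, Cd74, Slc4a1, Egf, Ttr, Alb, Scnn1b, Scnn1g and Cldn16, and Kap, Umod, Slc12a1, Aqp2 and the 4 members set beside them in the traces, were chosen after their values were seen.

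The labels number replicates 1 to 3 in both genotypes without saying that a number marks a shared day or litter. The deviations of WT and Ctcf+/- libraries of the same number correlated in kidney (r = 0.209, 0.190 and 0.212 across genes) and brain (0.207, 0.383 and 0.537). The values were 0.051, 0.118 and 0.277 in liver, 0.083, 0.183 and 0.271 in muscle and -0.472, -0.227 and 0.475 in spleen. Libraries of different number were not compared, so these values do not settle whether the numbers pair libraries. The main tests left the number out, and the block was an alternative in each tissue.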

Additional observations from a re-analysis of the deposited data

Results flagged for a closer look

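The genotype difference of 4 genes varied between the 5 tissues in edgeR's interaction test over 30 libraries, with adjusted p of 0.000444 for Slc22a6, 0.000856 for Lrp2, 0.00302 for Slc4a4 and 0.00808 for Slc22a8. In spleen all 4 were higher in every Ctcf+/- library than in any WT library, as were 4.35% of the genes tested. In muscle Slc22a6 and Lrp2 were lower in every Ctcf+/- library, as were 6.28% of the genes tested. All 4 passed the filter on low counts in spleen only through the Ctcf+/- libraries. In muscle Slc22a6 and Lrp2 passed it only through the WT libraries, so neither result is read against these shares. In kidney the log2 differences of the 4 genes were -0.06, -0.04, -0.01 and -0.14. The highest spleen level of the 4 was 1.86 CPM (Lrp2). The interaction test called 0.758% of all genes tested, and the 4 are not read against this share. Without the muscle and spleen libraries no member passed it. The libraries were treated as independent, although the design text takes the tissues from the same mice.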

How the results depend on the processing

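No member was called in kidney, brain or liver under any of the 14 alternatives. In kidney the number of all genes called moved from 4 to 157 with DESeq2, 45 with a filter of 1 count, 2 with 10 counts in every library, 13 in the fit of all 30 libraries, and 3 to 56 when 1 library was left out (56 without Ctcf+/- replicate 3 and 9 without Ctcf+/- replicate 1). With the replicate number as a block it was 21, and 1 gene of the pathway lists was called (Cyp24a1). Without Ctcf+/- replicate 3, 1 gene of these lists was called (Cyp2e1), so that leaving out libraries gave 0 to 1. The block changed no other call of a named gene in kidney or brain. In muscle the members called were 3 with DESeq2 and 1 with a filter of 1 count. The fit of 30 libraries called 4 and the replicate block 1. Over all genes these settings called, in the same order, 182 of 26245, 66 of 26245, 229 of 24262 and 118 of 16064. In the main muscle fit 6 of the 9 members tested passed the filter only through the WT libraries. In spleen the members called were 5 with DESeq2, 2 with total counts and 3 with limma-voom. A filter of 1 count called 3 and the fit of 30 libraries 4. Over all genes these settings called, in the same order, 192 of 29442, 60 of 18615, 97 of 18615, 74 of 29442 and 250 of 24262. In the main spleen fit 5 of the 9 members tested passed the filter only through the Ctcf+/- libraries. The member counts in muscle and spleen are therefore not read against all genes. In the interaction test 6 members passed without muscle, with Slc5a12 and Slc34a1 added. With a filter of 1 count 6 passed, with Slc5a12 and Slc13a3 added. Without spleen 1 passed, and without muscle and spleen 0 did. This last setting was chosen after seeing the data. So were the muscle count ratio of Slc22a6 without each WT library and the total-count scaling of the spleen traces. The counts over all genes in kidney, muscle and spleen were also added after seeing the data. Under the block 4 passed, with Slc5a12 in place of Slc22a8 (adjusted p = 0.122). In muscle 5 members were lower in all Ctcf+/- libraries, and 5 to 8 when 1 library was left out (8 without Ctcf+/- replicate 3). The share over all genes was not computed with a library left out. The labels do not say in any tissue that a shared number pairs libraries. The r between same-numbered libraries ran from -0.472 to 0.475 in liver, muscle and spleen. In kidney and brain it ran from 0.190 to 0.537.

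Directions close to 0 turned when 1 library was left out. In kidney the log2 differences ranged from -0.081 to 0.18 for Slc5a12, -0.10 to 0.015 for Slc22a6, -0.17 to 0.13 for Slc13a3, -0.15 to 0.093 for Slc4a4, -0.13 to 0.070 for Lrp2, -0.037 to 0.12 for Cubn and -0.46 to 0.087 for Ppara. In brain they ranged from -0.25 to 0.019 for Slc22a6, -0.13 to 0.11 for Slc7a7 and -0.22 to 0.10 for Slc4a4, the last being 0.048 in the fit of 30 libraries. Slc4a4 in liver ranged from -0.13 to 0.17 and was -0.013 with limma-voom and -0.00767 with the replicate block. Slc7a7 ranged from -0.23 to 0.016 in muscle and -0.022 to 0.26 in spleen. The cause was not tested for any of these. Depth limits the traces, where 3 counts are 0.0228 to 0.0602 CPM before TMM scaling.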
